A study of Homo sapiens with 12 samples.

Results

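The 45 genes described here encode proteins that copy DNA in S phase, from origin licensing to the supply of nucleotides, and they were chosen by symbol from 26485 genes in the deposited tables. RNA was sequenced from spheroids of 3 sublines of DU145, a human prostate cancer cell line, with 4 biological replicates of each subline. DU145KO cells carried a CRISPR-Cas9 knock-out of the α2 integrin gene ITGA2 and no further construct. DU145KO+α2 cells were the same knock-out cells stably transfected with the pAWneo2 vector holding α2 integrin cDNA, and DU145KO+vector cells had received the empty pAWneo2 vector. All 12 samples therefore came from knock-out cells, both transfected lines were kept under geneticin, and no line with the native gene was part of the comparison. Edited cells were picked by GFP and remaining α2 positive cells were removed by flow sorting, and the number of clones behind each line is not given in the sources used here, so an effect of α2 and a trait of the transfected line cannot be told apart. Spheroids of 8000 cells had been grown for 72 hours without serum.

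DNA replication begins when the origin recognition complex, CDC6 and CDT1 load the MCM helicase onto origins in G1. In S phase CDC45 and the GINS complex join the helicase, polymerase alpha with primase starts each strand, and polymerases epsilon and delta extend it with the help of the PCNA clamp and its loader. Many of these genes are transcribed together at the G1/S transition under E2F factors, which are held back by the retinoblastoma protein, and DU145 cells are known to lack that protein in functional form.

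Total counts ran from 13948734 to 19988111 per sample. All 45 genes passed the filter on low counts that kept 14732 genes, and their counts ran from 31 to 3662 in single samples. ITGA2, the edited gene, was measured at 15.7 to 25.8 CPM (counts scaled to the effective library size with TMM factors) in DU145KO, at 13.0 to 20.2 CPM in DU145KO+vector and at 259 to 332 CPM in DU145KO+α2. Of 12 markers of stromal, endothelial and immune cells, PTPRC, CD3E, DCN, COL3A1 and VWF stayed at or below 0.276 CPM in every sample, and the summed level of the list was 64.2 to 99.3 CPM in DU145KO, 70.9 to 91.6 in DU145KO+α2 and 65.8 to 98.2 in DU145KO+vector. CD68 supplied most of this sum (47.8 to 81.7 CPM). The summed level of the 5 epithelial markers was 1211 to 1584 CPM in DU145KO, 860 to 1154 in DU145KO+α2 and 1142 to 1387 in DU145KO+vector.

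The levels of the 45 genes were compared with each other per gene length, as deposited RPKM (reads scaled by gene length and library size). PCNA, the sliding clamp, was the most abundant, with a mean of 61.9 RPKM over the 12 samples. Its 4 samples read 68.5, 50.1, 46.8 and 81.1 RPKM in DU145KO, 58.6, 52.7, 49.0 and 62.8 in DU145KO+α2, and 74.5, 57.1, 62.2 and 79.3 in DU145KO+vector. MCM3, a helicase subunit, followed with a mean of 46.7 RPKM. Its values were 49.2, 37.7, 33.5 and 66.2 RPKM in DU145KO, 42.1, 45.9, 33.3 and 49.3 in DU145KO+α2, and 49.3, 43.2, 48.9 and 61.8 in DU145KO+vector, so that the ranges of the lines overlapped. TYMS, thymidylate synthase, came next at a mean of 41.3 RPKM and spanned 16.6 to 61.1 RPKM within DU145KO alone, wider than the gap to MCM3. TYMS was measured at 39.0, 29.4, 16.6 and 61.1 RPKM in DU145KO, at 36.0, 40.8, 24.0 and 57.2 in DU145KO+α2 and at 46.2, 34.7, 42.7 and 68.2 in DU145KO+vector. Because 39.9% of its exonic bases overlap ENOSF1 on the opposite strand and the strand setting of the counting is not given in the sources used here, its level is uncertain. The same holds for cyclin E2 (CCNE2), with 37.0% of exonic bases shared with INTS8.

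The least abundant were the checkpoint adaptor CLSPN and the transcription factor E2F2, with means of 1.38 and 0.81 RPKM. CLSPN read 1.01, 1.21, 0.60 and 2.52 RPKM in DU145KO, 0.75, 1.23, 0.61 and 1.69 in DU145KO+α2, and 1.24, 1.20, 1.77 and 2.73 in DU145KO+vector. E2F2 read 0.79, 0.43, 0.36 and 1.12 RPKM in DU145KO, 0.53, 0.84, 0.49 and 1.082 in DU145KO+α2, and 0.90, 0.75, 0.9999 and 1.40 in DU145KO+vector. In all 3 lines the replicate numbered 4 held the highest value of both genes, a pattern that recurred across the list.

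Promoter windows of 300 bases, from 250 bases before to 50 bases after the start site, were available for 40 of the 45 genes from RefSeq (GRCh38.p14). The letters TTTCGCGC or TTTGGCGC, the usual form of an E2F site, were found on either strand in 13 of the 40 windows (32.5%) and in 403 of 35116 promoter windows of all genes (1.15%). The 13 were MCM2, MCM3, MCM6, MCM7 and CDC6 among the licensing genes, GINS1, the polymerase genes POLA1, POLA2, POLE and POLE2, and the G1/S genes E2F1, E2F2 and DTL. A second E2F form, GGCGGGAA or GCGGGAAA, whose letters can overlap the first, stood in 16 of 40 windows (40.0%) against 3.97% of all. The CCAAT box (CCAAT) stood in 55.0% of the windows against 34.6% of all, and the letters TTTGAA or TTCGAA of the cell cycle homology region in 5.0% against 16.4%. The 160 bases before the start site are shown for MCM6, POLA1 and POLA2, which hold the first form and were lower with α2 than with the empty vector, for E2F1, whose product binds such sites, and for POLD1, the gene that was higher in DU145KO+α2. Capitals mark matches to TTTCGCGC or TTTGGCGC on either strand, and each sequence is written 5′ to 3′ on the strand of its gene.
MCM6, chr2:135876444-135876603, minus strand: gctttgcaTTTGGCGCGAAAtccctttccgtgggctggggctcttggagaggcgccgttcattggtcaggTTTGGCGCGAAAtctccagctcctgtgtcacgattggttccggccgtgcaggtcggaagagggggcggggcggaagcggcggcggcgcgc
POLA1, chrX:24693758-24693917, plus strand: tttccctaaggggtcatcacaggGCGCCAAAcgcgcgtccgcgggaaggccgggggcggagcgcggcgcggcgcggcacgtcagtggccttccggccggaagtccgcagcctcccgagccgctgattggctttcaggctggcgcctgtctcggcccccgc
POLA2, chr11:65261802-65261961, plus strand: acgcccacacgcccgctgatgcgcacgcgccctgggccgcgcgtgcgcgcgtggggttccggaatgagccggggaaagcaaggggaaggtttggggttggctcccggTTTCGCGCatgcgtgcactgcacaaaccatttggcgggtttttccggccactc
E2F1, chr20:33686386-33686545, minus strand: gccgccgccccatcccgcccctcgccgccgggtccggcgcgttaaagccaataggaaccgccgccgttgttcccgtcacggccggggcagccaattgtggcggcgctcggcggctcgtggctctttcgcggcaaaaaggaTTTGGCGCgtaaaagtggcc
POLD1, chr19:50384163-50384322, plus strand: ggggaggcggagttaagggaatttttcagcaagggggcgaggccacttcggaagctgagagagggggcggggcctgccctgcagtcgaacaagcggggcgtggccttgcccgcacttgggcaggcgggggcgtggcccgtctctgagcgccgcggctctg
The MCM6 window held 4 matches that overlap at 2 places. A single match stood in the POLA1, POLA2 and E2F1 windows, ending 129, 45 and 12 bases before the start site, and the POLD1 window held none. Of the 12 genes called lower with α2 than with the empty vector, all with a window, 4 held the first form (MCM6, POLA1, POLA2 and CDC6, the last just after its start site), beside 13 of the 40 windows. The other lower genes held no match to it, like POLD1. The second form stood in 3 of the 12, beside 16 of the 40. A match of letters describes the window only.

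DU145KO+α2 was compared with DU145KO+vector to ask how the genes differ when the same knock-out cells carry α2 cDNA or an empty vector. Of the 45 genes, 12 were lower and 1, POLD1, was higher in DU145KO+α2 (edgeR quasi-likelihood F-test with the line and the replicate number as terms, 2-sided, Benjamini-Hochberg adjusted p below 0.05 over all genes tested). That was 28.9% of the genes, beside 26.5% of all 14732 genes called in this comparison. By direction, 26.7% of the genes were called lower beside 13.7% of all genes, and 1 was called higher beside 12.9%. The fitted log2 fold change was negative for 40 of the 45, with a median of -0.24 beside -0.01 over all genes. No fitted value of the list reached a fold change of 2, whereas 2.68% of all genes were called beyond it. In bulk RNA, fewer cells in S phase and less RNA per cell cannot be told apart. Without the replicate number in the fit, 2 of the 45 were called (RFC5, adjusted p = 0.0181, and PRIM1, adjusted p = 0.0489), beside 11.9% of all genes.

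**Figure D1:**
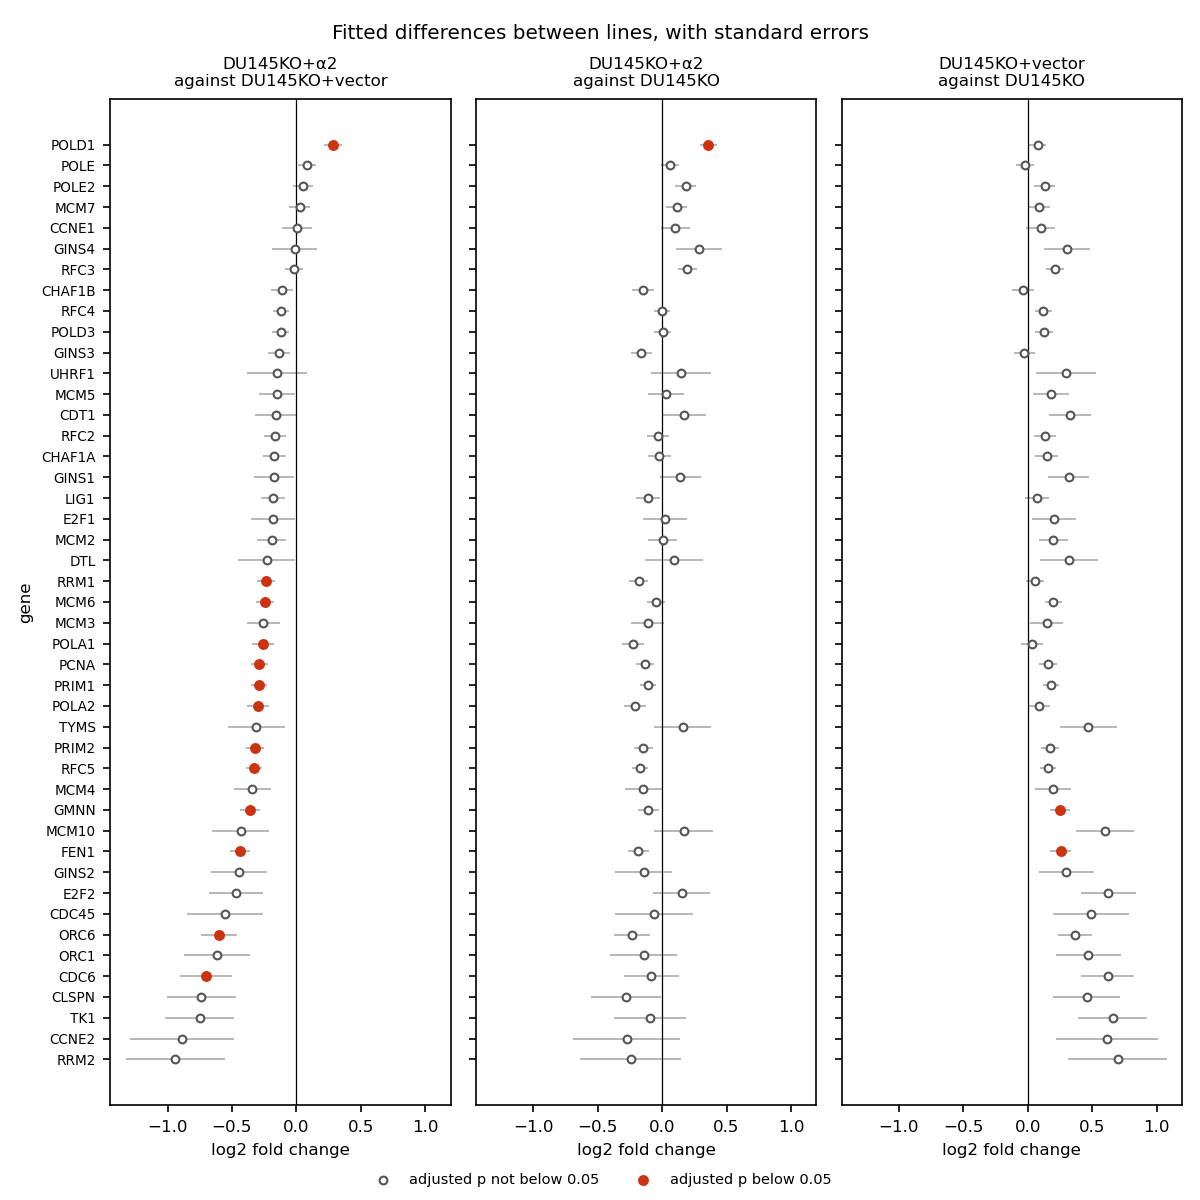
Fitted log2 fold change (x axis) of each of the 45 genes (y axis, ordered by the left panel) in the 3 comparisons, with bars of 1 standard error. Red points passed an adjusted p of 0.05 in the edgeR test: 13 in the left panel, 1 in the middle and 2 on the right, and 40 of 45 points lie below 0 in the left panel.

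In the licensing group 4 of 11 genes were lower. CDC6 (chr17:40287879-40304657), which loads the helicase at origins, read 9.94, 12.7, 9.63 and 18.3 CPM with α2, in the order of replicates 1 to 4, and 14.6, 14.3, 20.02 and 35.5 CPM with the empty vector. The α2 sample was the lower of each same-numbered pair, but the groups overlapped because replicate 4 of DU145KO+α2 exceeded replicates 1 and 2 of DU145KO+vector. The log2 fold change was -0.70 (SE 0.21, adjusted p = 0.0364). CDC6 was not called with no filter on low counts, without replicate 2 of DU145KO, or without replicate 1, 3 or 4 of DU145KO+α2. Nor was it called without replicate 4 of DU145KO+vector, or without replicate 1 or 4 of all lines. ORC6 (chr16:46689643-46698394), a subunit of the origin recognition complex, read 5.03, 6.35, 5.61 and 8.79 CPM against 7.70, 7.68, 9.03 and 15.2 CPM. All 4 pairs were lower with α2 and the groups overlapped only through replicate 4 of DU145KO+α2. The log2 fold change of ORC6 was -0.60 (SE 0.14, adjusted p = 0.0024). GMNN (chr6:24774931-24786099) encodes geminin, the inhibitor of CDT1 that blocks a second round of licensing. It read 25.4, 25.1, 21.7 and 30.9 CPM with α2 and 30.6, 29.1, 33.2 and 38.9 CPM with vector, again lower in 4 of 4 pairs and overlapping through replicate 4, with a log2 fold change of -0.36 (SE 0.08, adjusted p = 0.0015). MCM6 was lower as well (log2 fold change -0.24, SE 0.07), though its replicate 2 pair was slightly higher with α2 (0.04 on the log2 scale). MCM6 was not called without replicate 3 or 4 of DU145KO+α2 or without replicate 3 of DU145KO+vector. Nor was it called without replicate 1, 3 or 4 of all lines. The other MCM subunits, ORC1 and CDT1 did not pass the test, and their log2 fold changes ran from -0.61 for ORC1 to 0.02 for MCM7.

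Among the polymerase and primase genes 4 of 8 were lower and 1 was higher. PRIM2 (chr6:57314805-57646850), the large primase subunit, read 25.6, 24.9, 22.1 and 26.3 in DU145KO+α2 and 33.6, 29.9, 26.1 and 34.5 in DU145KO+vector. Every pair was lower with α2, and only replicate 3 of DU145KO+vector fell within the α2 range. Its log2 fold change was -0.32 (SE 0.07, adjusted p = 0.00194). PRIM1 (chr12:56730438-56752374), the catalytic primase subunit, read 33.9, 29.4, 32.2 and 35.2 CPM against 38.9, 36.1, 39.8 and 45.7 CPM, and its groups did not overlap (log2 fold change -0.29, SE 0.06). POLA2 (chr11:65261913-65305959), the accessory subunit of polymerase alpha, read 26.8, 29.0, 22.9 and 29.1 CPM against 33.0, 33.0, 29.3 and 37.3 CPM, also without overlap (log2 fold change -0.30, SE 0.08). POLA1, the catalytic subunit of polymerase alpha, had a log2 fold change of -0.26 (SE 0.08, adjusted p = 0.0244). It was not called by DESeq2 with the block, nor without replicate 3 or 4 of DU145KO+α2, without replicate 2, 3 or 4 of DU145KO+vector, or without replicate 3 or 4 of all lines. POLA2 was not called without replicate 4 of DU145KO+α2, without replicate 3 of DU145KO+vector, or without replicate 1 or 3 of all lines. Of these primase and polymerase alpha genes PRIM1 alone passed when the replicate number was left out of the fit.

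POLD1 (chr19:50384204-50418018), the catalytic subunit of polymerase delta, went the other way. It read 77.1, 75.4, 67.6 and 83.9 in DU145KO+α2 and 74.6, 54.6, 58.3 and 63.3 in DU145KO+vector. The 4 pairs were all higher with α2, but the pair numbered 1 differed by 0.05 on the log2 scale and its DU145KO+vector sample lay within the α2 range. The log2 fold change was 0.28 (SE 0.07, adjusted p = 0.00376). The other polymerase genes POLE, POLE2 and POLD3 did not pass the test (log2 fold changes 0.08, 0.05 and -0.12).

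In the clamp, clamp loader and Okazaki group 3 of 7 genes were lower. FEN1 (chr11:61792911-61797238), the flap endonuclease that trims Okazaki fragments, read 52.5, 51.0, 42 and 60.7 in DU145KO+α2 and 69.7, 58.3, 64.7 and 87.2 in DU145KO+vector. All pairs were lower with α2, and replicate 4 of DU145KO+α2 alone lay above the lowest vector sample. Its log2 fold change was -0.44 (SE 0.08, adjusted p = 0.000566), the smallest adjusted p of the 45. RFC5 (chr12:118013588-118033130), a subunit of the clamp loader, read 36.1, 33.1, 34.9 and 35.1 CPM against 44.2, 40.6, 40.9 and 49.9 CPM, with every vector sample above every α2 sample. Its log2 fold change was -0.33 (SE 0.06, adjusted p = 0.000592), and it also passed without the replicate number in the fit. PCNA was lower by a log2 fold change of -0.29 (SE 0.07), while RFC2, RFC3, RFC4 and LIG1 did not pass the test (-0.17, -0.02, -0.12 and -0.18). FEN1 and RFC5 each have a named pseudogene in the annotation and PCNA has 3, and reads that align equally to such a copy were not counted, since uniquely aligned reads alone were kept.

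**Figure D2:**
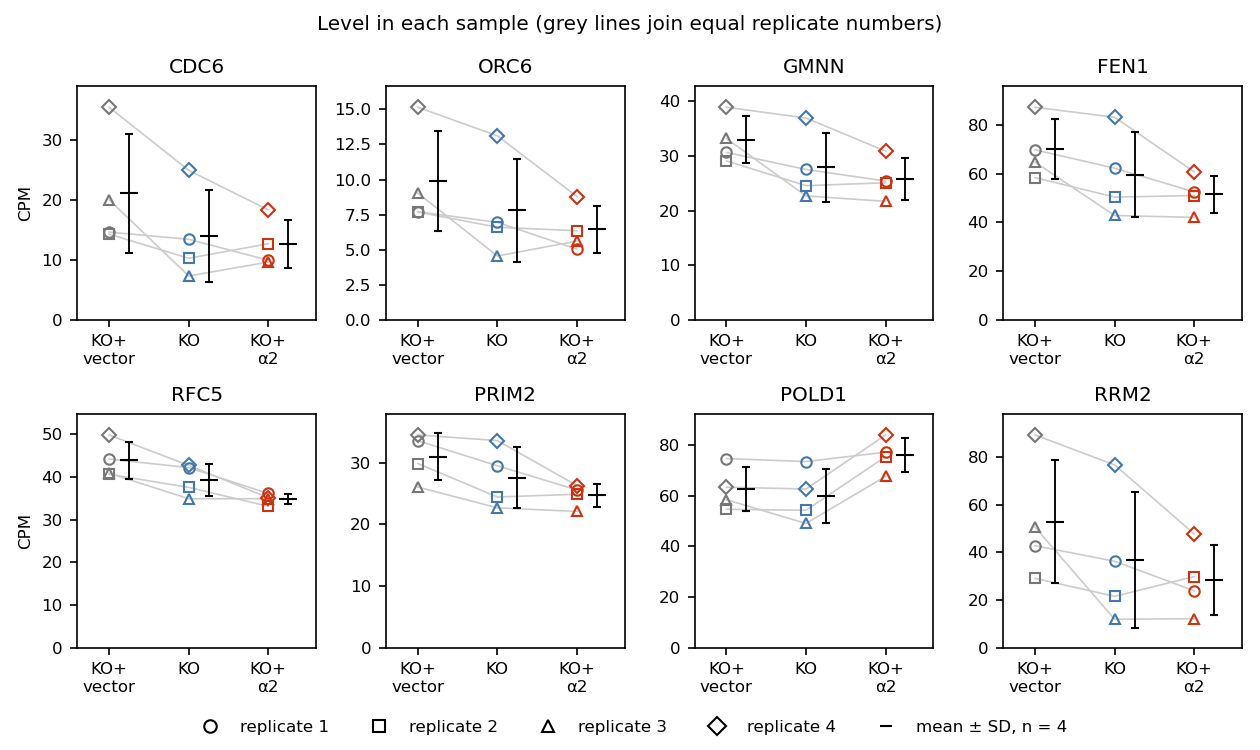
Level in CPM (y axis, from 0) of 8 genes in every sample of the 3 lines, with 1 symbol per replicate number, grey lines joining equal numbers, and bars for the mean and SD of 4 samples. Replicate 4 is the highest sample in each line for CDC6, ORC6, GMNN, FEN1, PRIM2 and RRM2, and POLD1 is the gene of the 8 with its highest mean in DU145KO+α2.

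None of the 7 helicase activation genes, the 3 chromatin genes or the 5 G1/S genes passed the test, and among the 4 nucleotide supply genes RRM1, the large subunit of ribonucleotide reductase, was lower (log2 fold change -0.24, SE 0.07). RRM1 was not called without replicate 3 or 4 of either transfected line, or without replicate 3 or 4 of all lines. The largest fitted differences of the list were nevertheless in the helicase activation, nucleotide supply and G1/S groups. RRM2, the small subunit of ribonucleotide reductase, named after its values were seen, read 23.8, 29.8, 12.1 and 47.7 CPM with α2 and 42.8, 29.1, 50.6 and 89.3 CPM with vector. The pairs numbered 1, 3 and 4 were lower with α2, the pair numbered 2 was not, and the groups overlapped widely. Its log2 fold change of -0.94 had an SE of 0.39 (adjusted p = 0.132). CCNE2 (-0.89, SE 0.40), TK1 (-0.75, SE 0.27) and CLSPN (-0.74, SE 0.27) likewise did not pass the test. Voom and limma with the replicate number in the fit called these 4 genes, and DESeq2 called TK1, CLSPN and ORC1.

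The pairs of same-numbered samples did not move alike. DU145KO+α2 was below DU145KO+vector for 39 of the 45 genes in replicate 1 (median log2 difference -0.23), for 43 in replicate 3 (-0.43) and for 43 in replicate 4 (-0.36). In replicate 2, 30 of the 45 were above (median 0.06). Over the 4 pairs, 15 genes (33.3%) were lower in all, beside 22.5% of all genes tested, and 3 genes (6.67%; RFC5, PRIM1 and POLA2) had groups that did not overlap, all lower with α2, beside 17.2% of all genes, 8.8% in that direction. Leaving out replicate 2 of DU145KO+α2 raised the number called from 13 to 26, beside 25.2% of all genes in that fit, leaving out replicate 2 of all lines raised it to 23, beside 22.9%, and leaving out replicate 4 of DU145KO+α2 lowered it to 8, beside 21.7%. FEN1, RFC5, PRIM1, PRIM2, GMNN, ORC6, PCNA and POLD1 stayed called in each of these fits and in every other fit that left out 1 sample or 1 replicate number.

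**Figure D3:**
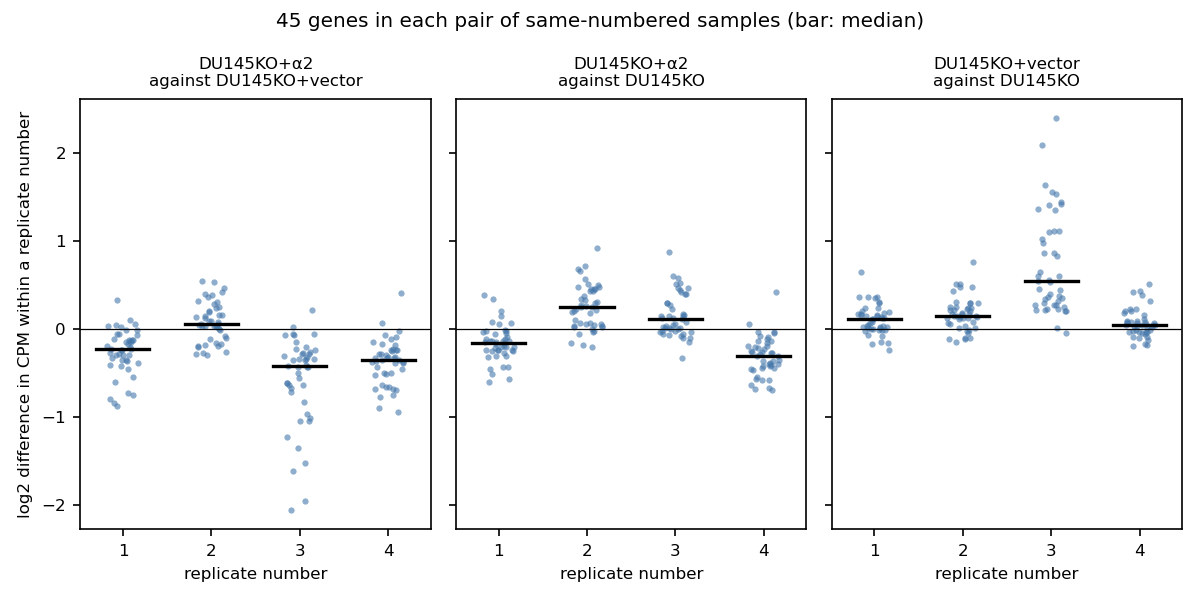
Log2 difference in CPM between same-numbered samples (y axis) for the 45 genes, by replicate number (x axis) and comparison (panels), with a bar at each median. In the left panel the medians are -0.23, 0.06, -0.43 and -0.36, and the widest spread in the right panel is in replicate 3, where 44 of 45 genes were higher in DU145KO+vector.

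Against the untransfected DU145KO cells, DU145KO+α2 differed in 1 of the 45 genes, beside 22.3% of all genes called in that comparison and 9.93% called higher. POLD1 was higher, at 77.1, 75.4, 67.6 and 83.9 CPM against 73.4, 54.2, 49.0 and 62.6 CPM in DU145KO. Only replicate 1 of DU145KO lay within the α2 range, and its log2 fold change was 0.36 (SE 0.07, adjusted p = 0.000609). Without the replicate number in the fit POLD1 did not pass (adjusted p = 0.0993), beside 8.17% of all genes called. The next smallest p belonged to POLA1, which read 16.6, 15.1, 12.2 and 17.4 CPM with α2 and 18.1, 15.5, 15.4 and 23.4 CPM in DU145KO, and to RFC3, which read 32.5, 24.99, 27.2 and 30.2 CPM with α2 and 24.8, 21.8, 24.6 and 29.2 CPM in DU145KO. Neither passed the test, with log2 fold changes of -0.23 (SE 0.08, adjusted p = 0.0554) and 0.20 (SE 0.07, adjusted p = 0.0565), and their groups overlapped although all 4 pairs had 1 direction. The median over the 45 was -0.06, beside 0.00 over all genes, and turned to 0.04 without replicate 4 of DU145KO and to 0.02 without replicate 4 of DU145KO+α2.

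Pair by pair, the median difference between DU145KO+α2 and DU145KO was -0.16, 0.25, 0.11 and -0.31 in replicates 1 to 4, and the number of genes lower with α2 was 38, 6, 14 and 43 of 45. The number called was 4 without replicate 2 of DU145KO, 6 without its replicate 3, 3 without its replicate 4, 5 without replicate 2 of DU145KO+α2 and 3 without its replicate 4. Leaving out replicate 2 or replicate 4 of all lines gave 4 called genes each time, and POLD1 was called in all of these fits. They called 16.9% to 20% of all genes.

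DU145KO+vector was compared with DU145KO to ask what the empty vector and its selection came with. GMNN and FEN1 were higher in DU145KO+vector, 2 of 45, beside 13.4% of all genes called and 5.59% called higher. GMNN read 30.6, 29.1, 33.2 and 38.9 CPM with vector and 27.5, 24.6, 22.7 and 36.9 CPM in DU145KO. FEN1 read 69.7, 58.3, 64.7 and 87.2 CPM with vector and 62.2, 50.3, 42.8 and 83.1 CPM in DU145KO. Both were higher with vector in 4 of 4 pairs, with the widest gap in replicate 3, and the groups overlapped through replicate 4 of DU145KO and, for FEN1, also through its replicate 1. The log2 fold changes were 0.25 (SE 0.08, adjusted p = 0.0346) for GMNN and 0.25 (SE 0.08, adjusted p = 0.0436) for FEN1. DESeq2 with the replicate number in the fit also called 2 genes, but FEN1 (adjusted p = 0.0397) and MCM10, and not GMNN (adjusted p = 0.0627). PRIM1 came next with 38.9, 36.1, 39.8 and 45.7 CPM against 34.7, 33.1, 33.1 and 40.5 CPM (log2 fold change 0.18, SE 0.06, adjusted p = 0.0543).

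The fitted difference between DU145KO+vector and DU145KO was positive for 42 of 45 genes, with a median of 0.20 beside 0.00 over all genes, and 19 of the 45 were higher in all 4 pairs, beside 17.5% of all genes. The median difference was 0.11, 0.15, 0.55 and 0.05 in replicates 1 to 4, so that the pair numbered 3, where 44 genes were higher with vector, differed most. Neither GMNN nor FEN1 was called without replicate 1, 2 or 3 of DU145KO, without replicate 3 of DU145KO+vector, without replicate 1, 2 or 3 of all lines, or with the replicate number left out of the fit, which called 2.34% of all genes. The total called was 7 without replicate 4 of DU145KO or without replicate 2 of DU145KO+α2, 6 without replicate 2 of DU145KO+vector, 4 without replicate 4 of DU145KO+α2 and 1 without replicate 1 of DU145KO, without replicate 1 of DU145KO+α2, or without replicate 1 or 4 of DU145KO+vector. It was 5 without replicate 4 of all lines and 0 without replicate 1 or replicate 3 of all lines. These fits called 6.85% to 14.2% of all genes.

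The 3 comparisons share samples, so their values are given side by side and not as separate evidence. FEN1 differed by -0.44 between DU145KO+α2 and DU145KO+vector, by -0.18 between DU145KO+α2 and DU145KO and by 0.25 between DU145KO+vector and DU145KO, all on the log2 scale. For GMNN the 3 values were -0.36, -0.11 and 0.25, for CDC6 -0.70, -0.08 and 0.62, and for POLD1 0.28, 0.36 and 0.08. DU145KO lay between the transfected lines for FEN1, GMNN and CDC6, and was the lowest line for POLD1. The difference between the comparisons of DU145KO+α2 with each control line is the remaining comparison itself, in which CDC6 (adjusted p = 0.0886) and POLD1 (adjusted p = 0.521) did not pass.

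The 45 genes also varied with the replicate number, which all 3 lines share. The joint test of the replicate terms called 34 of the 45 genes (75.6%), beside 35.7% of all genes tested. The replicate mean, taken as a deviation from each line's mean, was highest in replicate 4 for 44 of the 45 genes, beside 25% of all genes, and lowest in replicate 3 for 38, beside 25.6% of all genes. POLD1 was the gene whose highest mean was in replicate 1. Both extremes together, replicate 4 highest and replicate 3 lowest, were found in 37 of the 45 genes and in 9.54% of all genes. The range between replicate means had a median of 0.61 on the log2 scale, beside 0.28 over all genes, and ran from 0.20 for RFC5 to 1.82 for RRM2, which itself did not pass (adjusted p = 0.0711). What the replicate numbers share, such as a day or a passage, is not given in the sources used here.

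**Figure D4:**
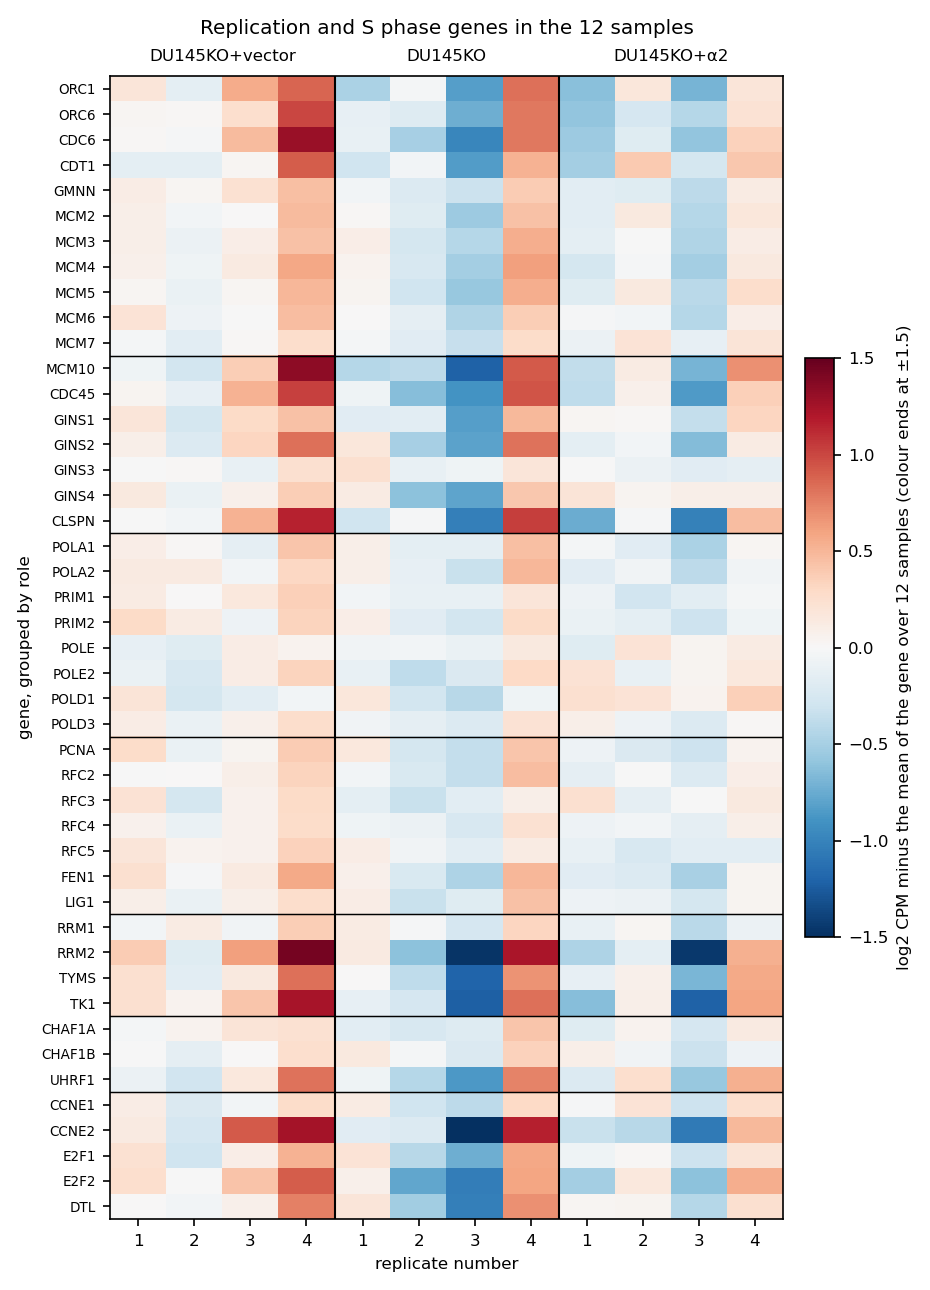
Each cell is the log2 CPM of a gene (rows, grouped by role) in a sample (columns, 4 replicates in each of 3 lines) minus the mean of that gene over the 12 samples, with colours ending at 1.5 above and below 0. The columns of replicate 4 are red in DU145KO+vector and DU145KO for most rows, the columns of replicate 3 are blue in DU145KO and DU145KO+α2, and the column of replicate 3 in DU145KO+vector is not.

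TK1, thymidine kinase, had the widest range of the called genes (1.54, adjusted p = 0.0364). It read 13.7, 12.5, 6.39 and 26.3 CPM in replicates 1 to 4 of DU145KO, 9.56, 15.8, 6.44 and 22.5 in DU145KO+α2 and 17.7, 15.4, 19.96 and 35.1 in DU145KO+vector. Replicate 4 was the highest in each line, whereas replicate 3 was the lowest in DU145KO and DU145KO+α2 but the second highest in DU145KO+vector. MCM10, which helps to activate the helicase, had a range of 1.47 (adjusted p = 0.00433). It read 5.62, 5.74, 3.26 and 14.2 CPM in DU145KO, 5.84, 8.20, 4.67 and 12.1 in DU145KO+α2 and 7.20, 6.25, 9.72 and 19.1 in DU145KO+vector, with the same exception in replicate 3 of DU145KO+vector. CLSPN (range 1.37) read 8.53, 10.4, 5.16 and 21.6 CPM in DU145KO, 6.27, 10.4, 5.20 and 14.5 in DU145KO+α2 and 10.5, 10.2, 15.1 and 23.3 in DU145KO+vector. TYMS (range 1.26) read 61.7, 47.1, 26.7 and 97.6 CPM in DU145KO, 56.2, 64.5, 38.3 and 91.3 in DU145KO+α2 and 72.7, 54.9, 68.2 and 109 in DU145KO+vector. For both, replicate 4 was again the highest of its line.

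By role, the median range between replicate means was 1.40 for nucleotide supply, 1.01 for G1/S control, 0.95 for helicase activation, 0.74 for licensing, 0.42 for the clamp group, 0.39 for the polymerases and 0.38 for the chromatin genes. The test called 10 of 11 licensing genes, 7 of 8 polymerase genes, 6 of 7 clamp genes, 4 of 7 helicase activation genes, 3 of 4 nucleotide genes, 2 of 3 chromatin genes and 2 of 5 G1/S genes. These shares ran from 40% for the G1/S genes to 90.9% for the licensing genes, beside 35.7% of all genes.

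The median deviation of the 45 genes from their line means was 0.08, -0.16, -0.41 and 0.50 in replicates 1 to 4 of DU145KO, -0.02, 0.06, -0.27 and 0.23 in DU145KO+α2 and -0.05, -0.24, -0.02 and 0.30 in DU145KO+vector. In DU145KO+vector the lowest sample was therefore replicate 2 and not replicate 3. A list of 25 G2 and mitosis genes deviated in the same samples, by -0.03, -0.15, -0.69 and 0.86 in DU145KO, by -0.22, 0.12, -0.51 and 0.70 in DU145KO+α2 and by -0.30, -0.38, -0.07 and 0.73 in DU145KO+vector, and 24 of the 25 were called for the replicate number. MKI67, the proliferation marker, read 53.7, 66.2, 36.4 and 125 CPM in DU145KO, 41.7, 82.3, 46.2 and 115 in DU145KO+α2 and 56.1, 61.8, 83.8 and 172 in DU145KO+vector. The number of replication genes called for the replicate number was 15 without replicate 4 of DU145KO, 18 without replicate 4 of DU145KO+vector, 22 without replicate 3 of DU145KO+α2 and 8 without replicate 4 of all lines. The same fits called 28.8%, 28.1%, 30.5% and 25.7% of all genes.

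**Figure D5:**
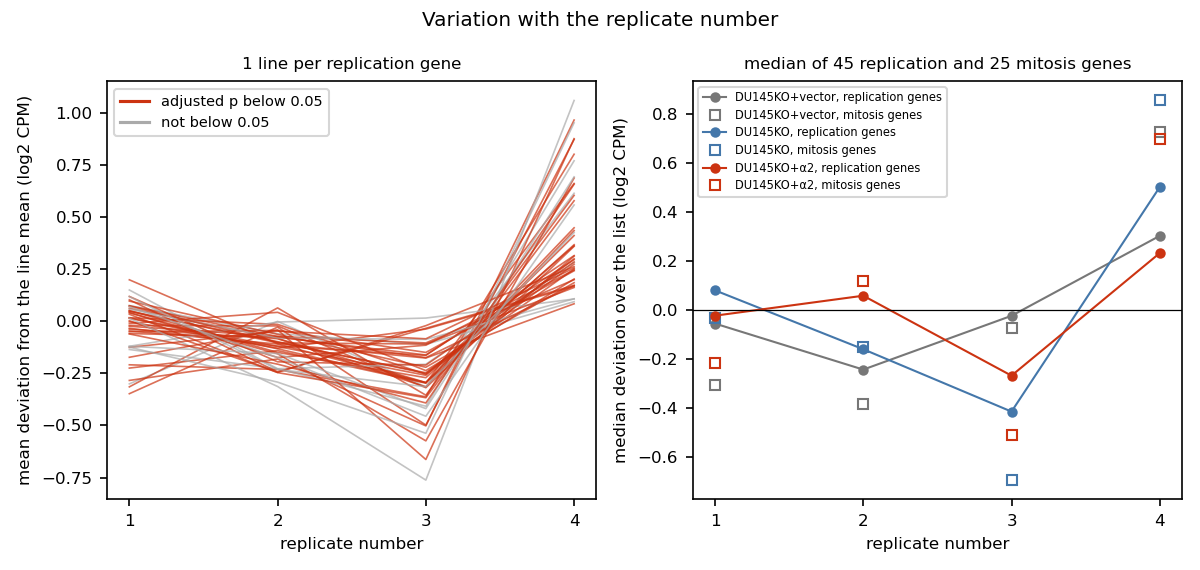
Left, the mean deviation of each replication gene from its line mean (y axis, log2 CPM) by replicate number (x axis), with red lines for genes called in the joint test. Right, the median deviation over 45 replication genes (filled circles) and over 25 mitosis genes (open squares) in every sample: replicate 4 is the highest of each line, from 0.23 to 0.50 for the replication genes.

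Other genes of the replication cycle were read from lists of their own. In the comparison of DU145KO+α2 with DU145KO+vector, 6 of 28 further replication factors were lower and 1 was higher: POLE3 and RPA3 had log2 fold changes of -0.41 and -0.32, and POLD4, another polymerase delta subunit, 0.39 (SE 0.06). Of 18 genes of nucleotide and histone supply, 8 were lower and none was higher, among them the histone chaperone NASP (-0.54, SE 0.06). Of 16 checkpoint and fork protection genes, 7 were lower and none was higher, with BRCA1 at -0.71 (SE 0.20). Among 26 tested of 27 G1/S regulators, 6 were lower and 5 were higher. CDK6 and CCND3, a kinase and a cyclin that act before S phase, were at -1.12 and -0.78, and the inhibitor CDKN1C and the factor E2F5 were at 0.77 and 0.26. The shares called were 25%, 44.4%, 43.75% and 42.3% in the 4 lists, beside 26.5% of all genes. Called lower were 21.4%, 44.4%, 43.75% and 23.1%, beside 13.7% of all genes. The medians of the 4 lists were -0.15, -0.16, -0.23 and -0.07, beside -0.24 for the 45 replication genes.

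Of the 25 G2 and mitosis genes 3 were lower, with CCNB2 at -0.52 and KIF11 at -0.33, and UBE2C was higher at 1.03 (SE 0.15). The median of that list was -0.32 with 23 of 25 values negative. Of 10 genes linked to quiescence 4 were higher and none was lower, with TOB1 at 0.82 (SE 0.07) and BTG2 at 0.37 (SE 0.08). Of 5 epithelial markers, CDH1, KRT8 and KRT18 were lower, and of 6 tested stromal, endothelial and immune markers PDGFRB was lower and KDR higher, both below 3 CPM in every sample. The shares called were 16% of the mitosis genes (12% lower) and 40% of the quiescence genes. They were 60% of the epithelial markers and 33.3% of the other markers tested. Of all genes 26.5% were called, 13.7% lower and 12.9% higher. The part of these lists in the values of the replication genes was not tested. MKI67 was at -0.38 (adjusted p = 0.318) and CCNA2, the S phase cyclin, at -0.68 (adjusted p = 0.135), neither of which passed. The inhibitor CDKN1B passed at 0.16 (adjusted p = 0.0289). CDKN1A (0.17), MYC (0.06), CCND1 (-0.15) and RB1 (-0.14) did not. CDKN1A, CDKN1B and RBL2 were counted in both the G1/S regulators and the quiescence genes.

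In DU145KO+α2 against DU145KO the same lists gave 3 lower and 2 higher of 28 replication factors (MCM9 -0.25, POLE3 -0.18, POLD4 0.43, WDHD1 0.21), 3 lower and 1 higher of 18 supply genes (NASP -0.53, GMPS -0.28, ASF1A 0.26) and 1 lower of 16 checkpoint genes (PALB2 -0.26). They gave 3 lower and 3 higher of 26 G1/S regulators (CDK6 -0.82, CCND3 -0.57, CDKN1C 0.38, CDKN2C 0.37), 1 higher of 25 mitosis genes (UBE2C 1.06) and 4 higher of 10 quiescence genes (TOB1 0.53, CCNG2 0.30). CCND1 was called lower there (-0.22) and CDKN1B higher (0.17), while MKI67 (0.04), CCNA2 (-0.10), CDKN1A (0.11), MYC (-0.13) and RB1 (-0.11) did not pass. Of the markers, EPCAM, CDH1, KRT8 and KRT18 were lower among the 5 epithelial genes and PDGFRB was lower among the 6 others tested. In the order given, the cell cycle lists had 17.9%, 22.2%, 6.25%, 23.1%, 4% and 40% of their genes called. The 2 marker lists had 80% and 16.7%, and all genes tested 22.3%.

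In DU145KO+vector against DU145KO, 3 replication factors were higher and 1 was lower (RPA3 0.40, POLE4 0.38, RFC1 -0.16), 3 supply genes were higher and 1 was lower (HELLS 0.30, DTYMK 0.26, SLBP -0.19), and 2 checkpoint genes were higher (among them FANCI, 0.29). Of the G1/S regulators 3 were higher and 2 lower (CDKN2C 0.39, SKP2 0.29, CDKN1C -0.39, MYC -0.19), 5 of 25 mitosis genes were higher (CDC20 0.66, CCNB2 0.63) and 2 of 10 quiescence genes were lower (HES1 -0.43, TOB1 -0.29). The values of MKI67 (0.42), CCNA2 (0.58), CDKN1A (-0.06), CDKN1B (0.01), CCND1 (-0.08) and RB1 (0.03) did not pass. EPCAM was lower among the epithelial genes and KDR among the others. In the order given, the cell cycle lists had 14.3%, 22.2%, 12.5%, 19.2%, 20% and 20% of their genes called. The 2 marker lists had 20% and 16.7%, and all genes tested 13.4%.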

How the data were processed

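RNA was measured in 12 spheroid samples, 3 lines with 4 replicates each, with a stranded mRNA kit. The authors deposited raw counts per gene, made by base calling with bcl2fastq 1.8.4, alignment to hg38 with TopHat2 2.1.0 and counting of uniquely aligned reads with Subread 1.5.0, and the authors deposited RPKM values, scaled by TMM factors and gene length, which were used only to compare levels between genes. The counts were filtered with filterByExpr (minimum count 10), scaled by TMM and fitted in edgeR 4.0.16 (R 4.3.3) by a robust quasi-likelihood model over all 12 samples, with the line and the replicate number as terms, and adjusted over 14732 genes. Within each line, replicates differed by 7.19 to 25.1 chi-square units per degree of freedom. No sample was therefore a second reading of another library of its line. Samples of different lines were not compared in this way, and separate libraries from 1 culture would not be detected. Pair differences used CPM plus 0.1.

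The replicate number was kept as a block because the rule that defined this gene list named it. Same-numbered samples also deviated together. Their 12 correlations of deviations from the line means ran from 0.13 to 0.55, against -0.29 to 0.15 for 36 pairs of different numbers. Deviations from a line mean cancel out within that line, so positive correlations between same numbers force lower ones between different numbers. The values for different numbers therefore add no separate evidence for the block. The pairing is read from the sample titles and the data. The 45 genes, their roles and the other lists (138 genes) were chosen with earlier results of these data known. Values per sample are given for the called genes with the largest fold change (up to 6 per direction), for the 3 genes with the smallest p where fewer than 3 were called, for the 3 highest and 2 lowest by mean RPKM and for the 4 called genes with the widest range between replicates. From each other cell cycle list up to 2 called genes per direction are named, and 7 cell cycle genes whatever their result. Some genes of these lists are not reported here by name. Other genes with values per sample, and RRM2, were chosen after their values were seen. Gene positions and overlaps come from GENCODE release 44 and promoters from RefSeq. Alternatives were DESeq2 1.42.0, voom and limma 3.58.1, other scalings and filters, no block, and fits without single samples. The fits without a whole replicate number were added after seeing the data.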

Additional observations from a re-analysis of the deposited data

Results flagged for a closer look

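Of 135 groups of 4 samples (45 genes in 3 lines), 3 held a sample that stood far from the others by Dixon's criterion, where chance gives about 6.75. CDT1, the licensing factor, read 22.2 CPM in replicate 4 of DU145KO+vector and 10.6 to 12.02 CPM in the other samples of that line, a gap of 0.879 of the group's range. DTL, a substrate receptor that targets CDT1 for destruction, read 43.4 CPM in replicate 4 of DU145KO+vector and 24.9 to 27.1 CPM in the others, a gap of 0.882 of the range. CHAF1A, the large subunit of chromatin assembly factor 1, read 39.6 CPM in replicate 4 of DU145KO and 25.1 to 26.6 CPM in the others, a gap of 0.897 of the range.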

How the results depend on the processing

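In DU145KO+α2 against DU145KO+vector, 13 genes were called, against 2 with no replicate block and 0 at a fold change above 2, and 12 to 19 under the other scalings, filters, tools and the fit of 2 lines. Fits that left out samples called 8 to 26 (23 without replicate 2 of all lines). In DU145KO+α2 against DU145KO, 1 was called, against 2 with DESeq2 size factors or with library size alone, 0 with no replicate block, 0 at a fold change above 2 and 1 to 6 without samples. In DU145KO+vector against DU145KO, 2 were called, against 1 with library size alone, 4 with no filter, 1 with at least 10 counts in every sample, 5 with voom and limma, 2 with DESeq2 (FEN1 and MCM10, not GMNN), 0 with no replicate block, 6 with only the 2 lines, 0 at a fold change above 2 and 0 to 7 without samples. For the replicate number, 34 were called, with 26 to 42 under other settings and 8 to 41 without samples (15 without replicate 4 of DU145KO). The replicate block changed no direction of a named gene. The cause of these shifts was not tested. The medians of DU145KO+α2 against DU145KO+vector (-0.34 to -0.15) and of DU145KO+vector against DU145KO (0.08 to 0.27) kept their sign in every fit run, and that of DU145KO+α2 against DU145KO (-0.14 to 0.09) did not. Without the block, all-gene calls fell to 11.9%, 8.17% and 2.34%. With other scalings, filters or tools, or only the 2 lines, they were 18.3% to 29.8%, 15.9% to 22.9% and 9.79% to 15.1%. In the same order, fits without samples called 19% to 28%, 15.2% to 22.4% and 6.85% to 14.2% of all genes. For the replicate number the shares were 25.6% to 38.5% under other settings and 15% to 36.9% without samples. Counts below about 100 reads, as in most samples of E2F2 and some of CCNE2, limit the precision of such values.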
